A study of Mus musculus with 20 samples.

Results

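The opioid system of the mouse brain was followed through the 4 genes that encode opioid peptide precursors (Pdyn, Penk, Pnoc and Pomc) and the 4 genes that encode opioid receptors (Oprm1, Oprd1, Oprk1 and Oprl1). The members were all probes whose RefSeq identifier belongs to one of these 8 symbols. They came to 11 probes out of 55681 on the array and to 8 genes out of 20972 with a symbol. Pdyn, Oprm1 and Oprl1 had 2 probes each and the other 5 genes had 1.

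The study asked how expression of the HIV-1 protein Tat in the brain and repeated exposure to methamphetamine (Meth) change gene expression, alone and together. There were 20 male mice on a C57BL/6J background, 5 in each of 4 groups, and 1 array per mouse. Tat- mice carried only the Tet-binding protein under the GFAP promoter, which is active in astrocytes. Tat+ mice carried in addition the Tat transgene behind a TRE promoter, so that doxycycline switches Tat on in GFAP-expressing cells. All mice of all groups received doxycycline at 100 mg/kg for 7 days. Tat-/Sal and Tat+/Sal mice were injected with 0.9% saline for 7 days, and Tat-/Meth and Tat+/Meth mice with 2 mg/kg Meth for 7 days. The sources disagree on what followed. The methods give 7 days of abstinence and then a challenge with 1 mg/kg Meth for every mouse, saline groups included, with the caudate putamen taken 1 h later at an age of 3 to 5 months. According to the labels the tissue was the left hemisphere, the mice were 6 to 7 weeks old, and 24 h had passed since their last injection. The p-values below measure the spread between these arrays.

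Opioid peptides are cut from larger precursors and act on receptors that couple to inhibitory G proteins, which lower cyclic AMP and dampen firing and transmitter release. In the striatum, prodynorphin (Pdyn) marks the projection neurons of the direct pathway and proenkephalin (Penk) those of the indirect pathway, and both genes are known to respond to dopamine. Dynorphins act mainly on the kappa receptor (Oprk1), enkephalins on the delta (Oprd1) and mu (Oprm1) receptors, nociceptin from Pnoc on its own receptor Oprl1, and beta-endorphin from Pomc on the mu receptor.

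Signals are given as log2 of the scanner software's processed signal with the 75th percentile of every array set equal. The brightest probe stood for a gene, and a difference between groups was tested with limma over 15102 genes, with a Benjamini-Hochberg adjusted p under 0.05 taken as passing. Levels of different probes are not comparable, so members are set only against themselves. Of the arrays, all 5 of Tat-/Meth lay on slide 1, which held no other group. Slide 2 held the 5 Tat-/Sal arrays with Tat+/Meth replicates 1 to 3, and slide 3 held Tat+/Meth replicates 4 and 5 with the 5 Tat+/Sal arrays. The Tat-/Meth group and slide 1 therefore cannot be told apart. Bright corner control spots, which carry no mouse RNA, read 14.7 to 15.1 log2 units on slide 1 and 16.8 to 17.4 on the others before scaling. The tissue carried striatal markers, with all 12 listed genes of striatal projection neurons well above background on every array and a summed signal of 19.5 to 19.9. Markers of other regions were also well above background on every array, with 3 of 8 for cortical excitatory neurons, 5 of 6 for thalamic neurons and 5 of 8 for hypothalamic neurons.

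All 8 brightest probes were well above background on all 20 arrays, none was saturated, and all 8 genes passed the signal limit. The plot of values by array shows the spread within each group.

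**Figure D1:**
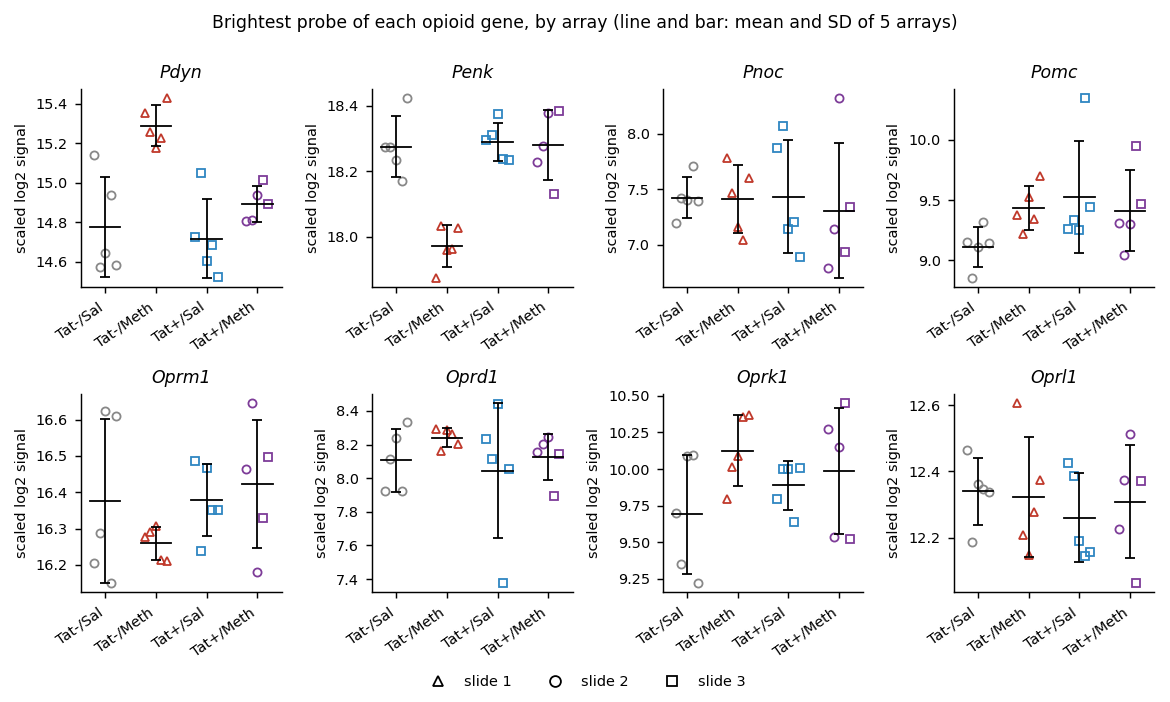
Scaled log2 signal of the brightest probe of each opioid gene, 1 symbol per array, by group (5 arrays each), with the shape giving the slide and the line and bar the mean and SD. The 5 Tat-/Meth arrays lie above all others for Pdyn (15.18 to 15.43) and below all others for Penk (17.87 to 18.03), and groups overlap for the other 6 genes.

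Meth without Tat (Tat-/Meth vs. Tat-/Sal) went with a higher Pdyn and a lower Penk signal, and the other 6 opioid genes did not pass the test. Thus 2 of 8 members passed, where 50.2% of all genes tested did, so that the share among the opioid genes was not above the background. Of all genes, 35% were higher and 15.3% were lower. At an unadjusted p under 0.05 the counts were 3 of 8 members and 56.4% of all genes. No member passed with a change above 2-fold here (6.85% of all genes), in Tat+/Meth vs. Tat-/Meth (7.22%), in Tat+/Sal vs. Tat-/Sal (0.0199%) or in the interaction (7.44%). The median difference of the 8 members was 0.06 log2 units, and that of all genes was 0.14.

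Pdyn encodes the precursor of the dynorphins. Its signal read 15.14, 14.57, 14.64, 14.94 and 14.58 in Tat-/Sal, and 15.35, 15.26, 15.18, 15.23 and 15.43 in Tat-/Meth. Every Tat-/Meth array was above every Tat-/Sal array, as was also the case for 24.7% of all genes. The difference was 0.51 ± 0.11 log2 units (SE, n = 5 and 5), or 1.43-fold, with a limma Benjamini-Hochberg adjusted p of 0.00068. Relative to the median of all genes the difference was 0.37. Tat+/Sal arrays read 14.73, 15.05, 14.61, 14.68 and 14.52, and Tat+/Meth arrays read 14.81, 14.81, 14.94, 15.02 and 14.89. In order of the means, Tat-/Meth (15.29 ± 0.10, SD, n = 5) stood first, followed by Tat+/Meth (14.89 ± 0.09), Tat-/Sal (14.78 ± 0.25) and Tat+/Sal (14.72 ± 0.20), and the last 3 groups did not differ from each other beyond their spread. In bulk tissue, fewer cells of a type and less RNA per cell cannot be told apart.

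The Pdyn call rested on 1 of its 2 probes (A_52_P586928). The dimmer probe (A_66_P123898) read 7.41 to 8.27 in Tat-/Sal and 7.86 to 8.25 in Tat-/Meth, a difference of 0.09 ± 0.20 with a limma adjusted p of 0.72. With no scaling of the arrays the brighter probe differed by 0.09 (limma adjusted p = 0.66), which was 0.38 above the median of all genes in that setting (-0.29).

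The stretch of 250 bases before the first annotated start of Pdyn is shown because it holds a sequence known from the rat gene as a noncanonical site for AP-1 proteins, the family of Fos and Jun. It lies on the minus strand at chr2:129699939-129700188 (RefSeq promoter, build GRCm38.p6) and is written 5' to 3' with the match in capitals.

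Pdyn promoter: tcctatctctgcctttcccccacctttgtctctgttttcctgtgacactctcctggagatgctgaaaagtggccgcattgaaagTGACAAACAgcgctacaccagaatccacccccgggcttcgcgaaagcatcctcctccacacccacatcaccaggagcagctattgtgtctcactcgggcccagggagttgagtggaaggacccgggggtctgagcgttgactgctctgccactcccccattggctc

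The match, TGACAAACA, begins 166 bases before the start. On either strand it occurs in 0.274% of the 32851 promoters searched over the same length. The 10 promoters listed for 5 of the opioid genes (Pdyn, Pomc, Oprm1, Oprd1 and Oprl1) held no other copy of it. Nor did they hold a cyclic AMP response element (TGACGTCA, in 1.55% of all promoters), its first letters alone (TGACG, which lies within the full element, in 17.8%) or a canonical AP-1 site (TGANTCA, in 6.75%). A match describes these letters and is not a measured binding site.

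Penk encodes the precursor of the enkephalins. Its signal read 18.27, 18.27, 18.23, 18.17 and 18.42 in Tat-/Sal, and 17.87, 18.03, 17.96, 17.96 and 18.03 in Tat-/Meth. Every Tat-/Meth array was below every Tat-/Sal array, as was also the case for 11.5% of all genes. The difference was -0.30 ± 0.06 log2 units (SE, n = 5 and 5), or 1.24-fold lower, with a limma adjusted p of 0.00028. Tat+/Sal arrays read 18.29, 18.31, 18.37, 18.24 and 18.23, and Tat+/Meth arrays read 18.23, 18.28, 18.38, 18.13 and 18.38. The means of Tat+/Sal (18.29 ± 0.06, SD, n = 5), Tat+/Meth (18.28 ± 0.11) and Tat-/Sal (18.28 ± 0.09) lay within their spread of each other, and Tat-/Meth (17.97 ± 0.06) came last.

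The lower Penk signal depended on the normalization. Penk is among the 130 genes with a mean signal of 17 or more, and in that class the median difference was -0.21, with 56.2% of the genes called lower and 5.38% called higher. After quantile normalization, which gives all arrays the same distribution of signals, the Penk difference was -0.01 ± 0.05 (limma adjusted p = 0.89). Median scaling left -0.18 (limma adjusted p = 0.39), and no scaling gave -0.73 (limma adjusted p = 2.0e-07). The median by brightness class, with each opioid gene beside its own class, shows that Penk fell by 0.30 in a class whose median fell by 0.21, whereas Pdyn rose by 0.51 in a class whose median rose by 0.09.

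**Figure D2:**
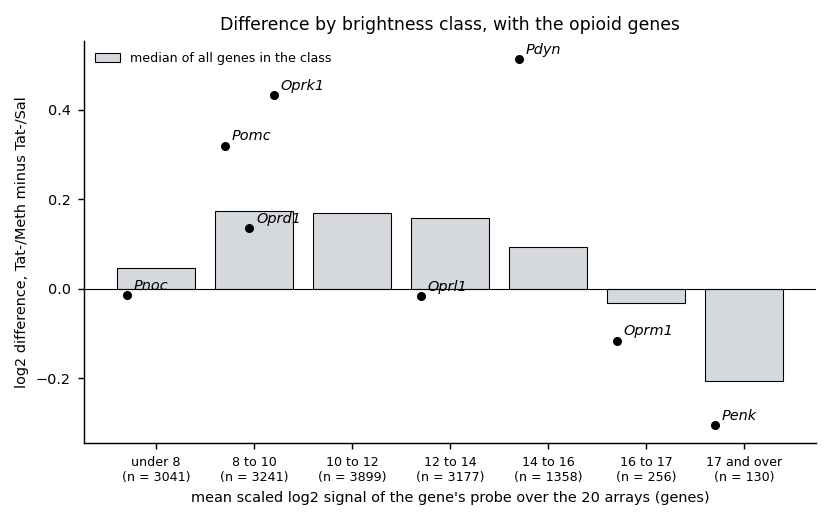
Log2 difference of Tat-/Meth minus Tat-/Sal (vertical axis) by class of mean signal (horizontal axis, with the number of genes); bars are medians of all genes in a class and points are the opioid genes. The medians run from 0.17 at 8 to 10 down to -0.21 at 17 and over, where Penk lies.

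The plot of alternatives gives both genes under each way of processing.

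**Figure D3:**
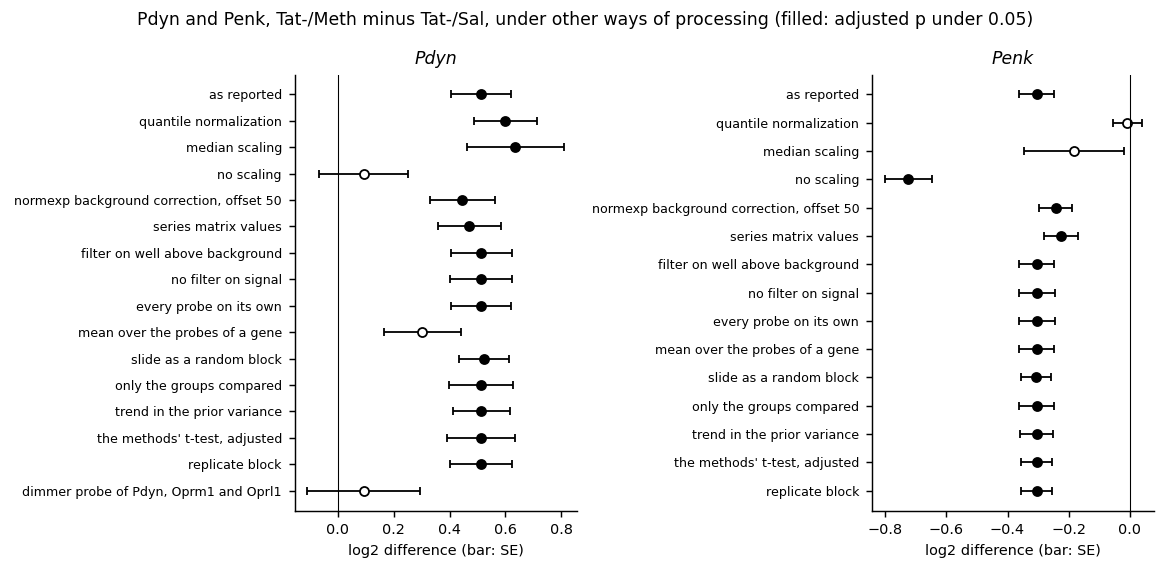
Log2 difference of Pdyn and Penk, Tat-/Meth minus Tat-/Sal, with its SE, as reported and under each alternative; filled points have an adjusted p under 0.05. Pdyn passes in all but 3 alternatives (no scaling, mean over its probes, dimmer probe) and Penk in all but 2 (quantile normalization, median scaling).

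The remaining precursors did not pass. Pnoc, the precursor of nociceptin, had a mean of 7.42 ± 0.18 (SD, n = 5) in Tat-/Sal and 7.41 ± 0.31 in Tat-/Meth. Pomc, the precursor of beta-endorphin and of melanocortins, read 8.85 to 9.32 in Tat-/Sal and 9.22 to 9.70 in Tat-/Meth, with 4 of 5 Tat-/Meth arrays above all of Tat-/Sal. The Pomc difference was 0.32 ± 0.19 (limma adjusted p = 0.16). With only these 2 groups in the fit, the limma adjusted p was 0.028.

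Of the receptors, Oprk1, which binds dynorphins, read 9.70, 9.35, 10.09, 10.09 and 9.22 in Tat-/Sal, and 9.80, 10.01, 10.09, 10.36 and 10.37 in Tat-/Meth. The groups overlapped, with 2 Tat-/Meth arrays above all of Tat-/Sal. The difference was 0.43 ± 0.20 (unadjusted p = 0.042, limma adjusted p = 0.076). The adjusted p fell under 0.05 with median scaling (0.042), normexp background correction (0.041) and slide as a random block (0.031), and also without Tat-/Sal replicate 3 (0.039) or replicate 4 (0.040). For the random block the correlation within slides was estimated at -0.06, so this setting does not adjust for a slide effect. Oprd1, the delta receptor, had a mean of 8.11 ± 0.19 in Tat-/Sal and 8.24 ± 0.06 in Tat-/Meth, and Oprl1, the nociceptin receptor, had 12.34 ± 0.10 and 12.32 ± 0.18. Neither passed (limma adjusted p = 0.44 and 0.89).

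The 2 probes of Oprm1, the mu receptor, gave different answers. The brighter probe (A_55_P2025443) had a mean of 16.38 ± 0.23 in Tat-/Sal and 16.26 ± 0.05 in Tat-/Meth, a difference of -0.12 ± 0.10 (limma adjusted p = 0.33). The dimmer probe (A_51_P100309, printed in 10 spots) read 6.19, 5.78, 6.51, 6.45 and 5.38 in Tat-/Sal, and 5.45, 5.76, 5.29, 5.53 and 5.60 in Tat-/Meth. Tested with every probe on its own, it differed by -0.53 ± 0.22 (limma adjusted p = 0.049). When each array was left out in turn, it differed by -0.70 to -0.42 over the 20 fits. The probe passed in 7 fits and did not pass in 13, with limma adjusted p of 0.0088 to 0.13 over all of them. It was well above background on 4 of 5 arrays in each of these 2 groups. The limit for testing, a mean of 6 log2 units in 1 group, was met in Tat-/Sal (6.06) and Tat+/Meth (6.25). The means of Tat-/Meth (5.53) and Tat+/Sal (5.81) lay below it. The dimmer Oprl1 probe (A_55_P2066598) differed by 0.44 ± 0.22 (limma adjusted p = 0.10), with 1 Tat-/Meth array at 7.38 and the other 4 at 5.99 to 6.33.

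**Figure D4:**
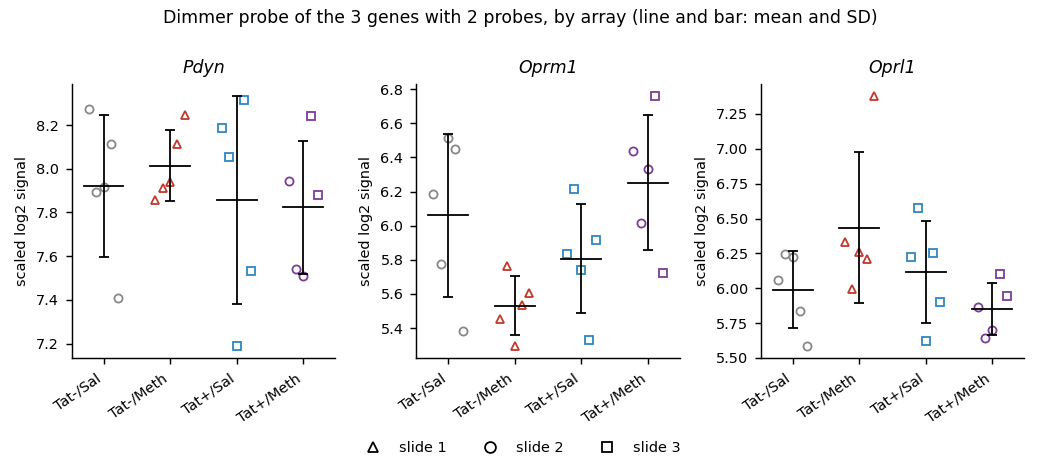
Scaled log2 signal of the dimmer probe of Pdyn, Oprm1 and Oprl1, 1 symbol per array, by group, with the shape giving the slide and the line and bar the mean and SD of 5 arrays. For Oprm1 the Tat-/Meth arrays lie at 5.29 to 5.76 and the Tat+/Meth arrays at 5.72 to 6.76, and for Oprl1 replicate 5 of Tat-/Meth stands at 7.38.

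Some markers of cell types were also called in this comparison, where 35% of all genes were called higher and 15.3% lower. Beside these shares, the counts alone do not show that a cell type changed. The summed signal of 6 microglia markers was 16.7 to 16.9 in Tat-/Meth and 17.4 to 17.8 in Tat-/Sal, with 2 of the 6 called lower and 0 called higher. That sum was carried by Itgam, the brightest of them (17.1 and 16.1), while Cx3cr1 read 13.02 in Tat-/Sal and 13.22 in Tat-/Meth and the median difference of the list was -0.07. That of 8 interneuron markers was 17.5 to 17.6 and 17.3 to 17.4, with 3 called higher and 1 called lower. That of 12 markers of striatal projection neurons was 19.5 to 19.7 in both groups, with 1 called higher and 2 called lower. Among the other lists, astrocytes had 3 higher and 1 lower of 6, oligodendrocytes 2 and 0 of 6, thalamic neurons 1 and 2 of 6, hypothalamic neurons 0 and 1 of 6, cortical excitatory neurons 0 and 1 of 6, choroid plexus 0 and 0 of 6 and red blood cells 1 and 0 of 2. Their part in the Pdyn and Penk differences was not tested.

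Between the Meth-treated groups, Tat+/Meth vs. Tat-/Meth gave the opposite signs for the same 2 genes, in a comparison that shares the Tat-/Meth arrays with the one above. Pdyn was lower by 0.40 ± 0.11 log2 units (limma adjusted p = 0.0046) and Penk was higher by 0.31 ± 0.06 (limma adjusted p = 0.00021). Neither gene's groups overlapped, which held for 26.8% of all genes in the direction of Pdyn and 11.2% in that of Penk. Again 2 of 8 members passed, where 54.4% of all genes did, 16% higher and 38.5% lower. The same 2 members were all that had an unadjusted p under 0.05, where 59.3% of all genes had one. The median difference was -0.06 over the members and -0.15 over all genes. For Penk, quantile normalization turned the sign, with -0.07 (limma adjusted p = 0.23). For Pdyn, the call was lost on the dimmer probe (-0.19 ± 0.20, limma adjusted p = 0.44), as the mean over its probes (-0.29, limma adjusted p = 0.084) and with no scaling (-0.06, limma adjusted p = 0.81).

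Among the receptors, no brightest probe passed in this comparison, and the differences ran from -0.14 for Oprk1 to 0.16 for Oprm1. The dimmer probes of 2 receptors passed on their own, in opposite directions. In each, a group that met the limit of 6 log2 units was set against a group below it. The means were 6.25 in Tat+/Meth and 5.53 in Tat-/Meth for Oprm1, and 6.43 in Tat-/Meth and 5.85 in Tat+/Meth for Oprl1. Both probes entered the test through groups where they read high, so these calls are given as a description. Oprm1 was higher by 0.72 ± 0.22 (limma adjusted p = 0.0088), with Tat+/Meth arrays at 6.44, 6.01, 6.33, 6.76 and 5.72. That call held in all 20 fits with 1 array left out. These fits remove neither the choice of the probe through its high groups nor the overlap of Tat-/Meth with slide 1. Oprl1 was lower by 0.58 ± 0.22 (limma adjusted p = 0.032). Without Tat-/Meth replicate 5, the array at 7.38, it was lower by 0.35 (limma adjusted p = 0.089), and the call was also lost without Tat+/Meth replicate 1, 2 or 3. Of the 5 Tat+/Meth arrays, 4 had that Oprl1 probe well above background, and its groups overlapped.

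**Figure D5:**
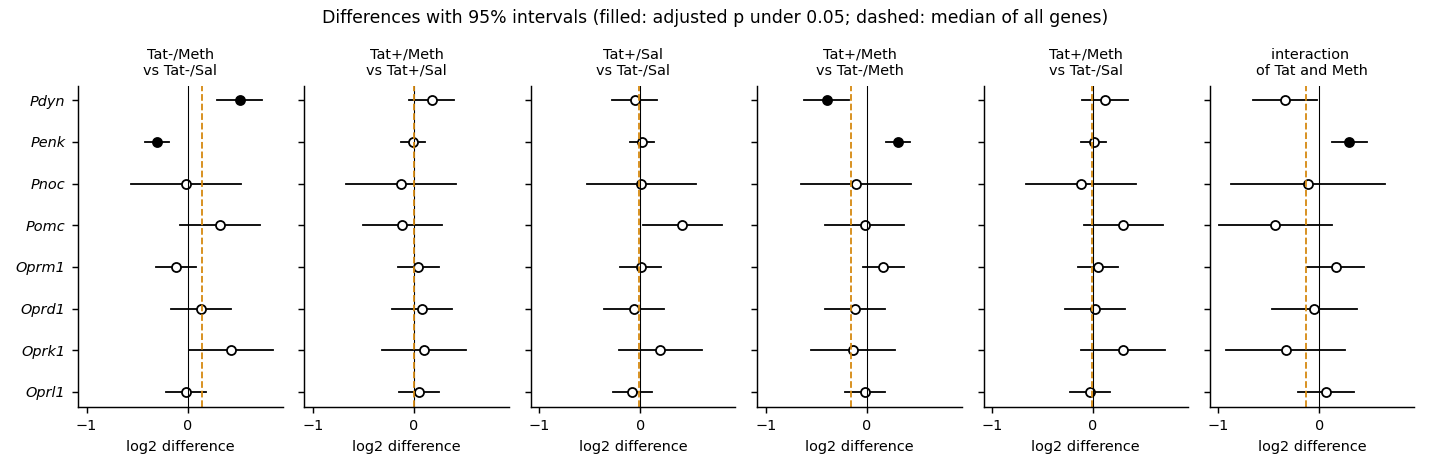
Log2 difference with its 95% interval (horizontal axis) for the brightest probe of each opioid gene (rows) in the 5 comparisons and the interaction; filled points have a limma adjusted p under 0.05 and the dashed line is the median of all genes. Pdyn and Penk are filled in both comparisons with Tat-/Meth, Penk alone is filled in the interaction, and no member is filled in the 3 comparisons without Tat-/Meth.

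In the 3 comparisons without Tat-/Meth, no member passed and the groups overlapped for every member. For the effect of Meth in Tat+ mice (Tat+/Meth vs. Tat+/Sal), 0 of 8 members passed in limma, as did 0% of all genes, and no member had an unadjusted p under 0.05, where 12.2% of all genes had one. Among all genes, the groups did not overlap for 0.867% that were higher and 1.41% that were lower. Pdyn differed by 0.17 ± 0.11 (95% interval -0.05 to 0.40, limma adjusted p = 0.53) and Penk by -0.01 ± 0.06 (-0.13 to 0.11). Within slide 3, where 2 Tat+/Meth arrays lay beside the 5 Tat+/Sal arrays, the Pdyn difference was 0.24 ± 0.14 (limma adjusted p = 0.9998). For Tat with repeated Meth against saline without Tat (Tat+/Meth vs. Tat-/Sal), again 0 of 8 members and 0% of all genes passed in limma. No member had an unadjusted p under 0.05, where 7.79% of all genes had one. Groups that did not overlap made up 0.536% (higher) and 1.14% (lower) of all genes. The differences ran from -0.12 for Pnoc to 0.30 for both Pomc and Oprk1. Within slide 2, with 3 and 5 arrays, Pdyn differed by 0.08 ± 0.14 and Penk by 0.02 ± 0.07.

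For Tat alone (Tat+/Sal vs. Tat-/Sal), 0 of 8 members passed in limma, where 1.42% of all genes did, 0.768% higher and 0.649% lower. Groups that did not overlap made up 1.85% (higher) and 3.01% (lower) of all genes. Pomc was the 1 member to pass without adjustment, where 20.5% of all genes did. Its difference was 0.42 ± 0.19 (limma Benjamini-Hochberg adjusted p = 0.22). Its Tat+/Sal arrays read 9.26, 9.33, 9.25, 10.35 and 9.44. Replicate 4 stood above the rest, and without it the difference was 0.21 (limma adjusted p = 0.48). With slide as a random block the limma adjusted p of Pomc was 0.037, and with slide as a fixed block the difference was -0.07. Pomc is made in the brain mainly by hypothalamic neurons, and the summed signal of 8 hypothalamic markers read 12.6, 11.5, 11.3, 11.8 and 11.1 over the Tat+/Sal arrays, so that replicate 4 was the second highest. Their part in the Pomc value was not tested. The other 7 members differed by -0.08 to 0.20.

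The interaction asks whether the Meth difference was the same in both genotypes, and is positive where it was greater in Tat+ mice. It passed for 1 of 8 members, where 36% of all genes passed, 12.4% above 0 and 23.6% below. At an unadjusted p under 0.05 it was 2 of 8 members and 45.3% of all genes. Penk had 0.29 ± 0.08 log2 units (limma adjusted p = 0.0090), with a Meth difference of -0.30 in Tat- mice and -0.01 in Tat+ mice. After quantile normalization the value was 0.02 (limma adjusted p = 0.80). Pdyn had -0.34 ± 0.15 (unadjusted p = 0.038, limma adjusted p = 0.090), with a Meth difference of 0.51 in Tat- and 0.17 in Tat+ mice. The Pdyn interaction passed after quantile normalization (-0.42, limma adjusted p = 0.043) and with slide as a random block (-0.36, limma adjusted p = 0.026), and also without Tat-/Sal replicate 1, the highest of its group (-0.43, limma adjusted p = 0.019). It did not pass in the other 11 of 13 alternative settings. Among these, no scaling turned its sign (0.15, limma adjusted p = 0.63) and the dimmer probe gave -0.12 (limma adjusted p = 0.76). The dimmer Oprm1 probe on its own had 0.98 ± 0.30 (limma adjusted p = 0.018), where the brighter one had 0.16 ± 0.14 (limma adjusted p = 0.38). The dimmer probe met the limit for testing only through Tat-/Sal (6.06) and Tat+/Meth (6.25). Both groups enter the interaction with a positive sign, so the limit itself favors a positive value and this call is given as a description.

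The rest of the opioid pathway was read from 6 lists of 57 genes, of which 53 were tested. In Tat-/Meth vs. Tat-/Sal, 14 were higher and 7 lower, both smaller shares than the 35% and 15.3% of all genes. The enzymes that break opioid peptides down had 4 higher and 0 lower of 8, with a median of 0.26. As 50.2% of all genes were called here, 4 of 8 is at the background. Dpp3, an enkephalin-degrading dipeptidyl peptidase, rose by 0.76 ± 0.06 (limma adjusted p = 2.2e-08), from 11.27 ± 0.12 to 12.03 ± 0.03 (SD, n = 5). Without scaling, 1 of the 8 was higher and 2 were lower, in a setting where the median of all genes was -0.29.

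Of the 8 genes of precursor processing, 1 passed, where 50.2% of all genes did. Cpe, the carboxypeptidase that trims the cut peptides, fell by 0.57 ± 0.06 (limma adjusted p = 5.3e-07). Like Penk it is among the brightest probes (18.30 in Tat-/Sal), and it fell by 0.22 after quantile normalization (limma adjusted p = 0.0011). As the mean over its probes the Cpe difference was -0.20, the smallest change of the 14 alternatives, in all of which it passed. The convertases Pcsk1 and Pcsk2, which make the first cuts, differed by 0.04 ± 0.10 and 0.02 ± 0.09 (limma adjusted p = 0.77 and 0.89), and are named for their role after their values were seen.

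Downstream of the receptors, 3 of 8 inhibitory G protein genes were higher and 1 was lower, and 1 of 9 effectors was higher and 1 was lower. Of all genes, 35% were higher and 15.3% lower, so these counts and those of the lists below do not by themselves show a change of a list. Gnai2, an inhibitory alpha subunit, fell by 0.49 ± 0.09 (limma adjusted p = 0.00032), and Adcy5, the main striatal adenylyl cyclase, fell by 0.42 ± 0.06 (limma adjusted p = 9.0e-06). With median scaling neither passed (limma adjusted p = 0.097 and 0.17), and Adcy5 did not pass either as the mean over its probes (limma adjusted p = 0.061). Of 13 desensitization and RGS genes, 4 were higher and 2 lower, and of 7 regulators of Pdyn and Penk transcription, 2 were higher and 2 lower. All 7 are named here after their values were seen. Jund (0.28) and Nr3c1 (0.19) were higher, Usf2 (-0.52) and Creb1 (-0.26) were lower, and Atf4 (0.16), Fosb (0.09) and Kcnip3 (-0.04) did not pass.

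In Tat+/Meth vs. Tat-/Meth, 11 of the 53 were higher and 18 lower, where 16% of all genes were higher and 38.5% lower. Of the 8 breakdown enzymes, 5 were lower and 0 higher. Dpp3 was lower by 0.61 ± 0.06 (limma adjusted p = 3.6e-07), while Cpe was higher by 0.58 ± 0.06 (limma adjusted p = 4.2e-07). Gnai2 was higher by 0.52 ± 0.09 (limma adjusted p = 0.00015) and Adcy5 by 0.40 ± 0.06 (limma adjusted p = 1.3e-05). With median scaling the latter 2 did not pass (limma adjusted p = 0.086 and 0.24).

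In the interaction, 5 of the 53 were positive and 9 negative, where 12.4% of all genes were positive and 23.6% negative. Dpp3 (-0.93 ± 0.09), Cpe (0.61 ± 0.09), Ece2 (-0.76 ± 0.16), an endothelin-converting enzyme that also cuts opioid peptides, and Creb1 (0.44 ± 0.09), the cyclic AMP response element binding protein, had the smallest p. Of 12 alternative settings, 4 removed the Creb1 call, among them quantile normalization (limma adjusted p = 0.10). The Cpe call was lost with median scaling (limma adjusted p = 0.20) and as the mean over its probes (0.19, limma adjusted p = 0.052), and the Ece2 call with no scaling (-0.28, limma adjusted p = 0.39). The Dpp3 interaction passed in all 12. In Tat+/Sal vs. Tat-/Sal, 2 of the 53 were higher and 0 lower, where 1.42% of all genes passed. These were Mapk3 (0.34 ± 0.06, limma adjusted p = 0.018), the kinase ERK1, and Dpp3 (0.32 ± 0.06, limma adjusted p = 0.030). Both calls were lost when slide was a fixed block (limma adjusted p = 0.89 for each) and when only the 2 groups were fitted (0.13 and 0.14). Mapk3 passed in 9 and Dpp3 in 8 of 15 alternative settings. With 1 array left out, Mapk3 passed in 16 of 20 fits (not without Tat-/Sal replicate 1, 2 or 4 or Tat+/Sal replicate 5) and Dpp3 in 15 (not without those 4 or Tat+/Sal replicate 3). When Tat+/Meth was set against either saline group, 0 of the 53 passed in limma.

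Covariation of the members was tested by pairs across the 20 arrays, after the mean of each group on each slide was taken off. Of 28 pairs of members, none passed in a two-sided permutation test with Benjamini-Hochberg adjustment. With 20 arrays this does not show that the members vary independently. The strongest correlation was that of Pomc and Oprd1 (Pearson r = -0.80, permutation p = 0.018, adjusted p = 0.11), with r of -0.54 without the 2 arrays farthest from the median. Pdyn and Oprm1 had r of -0.61 (permutation p = 0.025, adjusted p = 0.11). The smallest p was that of Pnoc and Oprl1, the nociceptin precursor and its receptor (Pearson r = 0.69, permutation p = 0.0022, adjusted p = 0.062).

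The genes most like each member were sought among 13984 genes over the same 20 deviations, as a description of arrays that share hybridization and scan. For Pdyn they were Ak5 (Pearson r = 0.91), Tafa2 (0.90) and Gda (0.87), and for Penk they were Dynlrb1 (0.93), Elovl2 (0.89) and Nsg2 (0.89). For the brighter Oprm1 probe they were Tacr2, Pdcd4 and Fbxo31, with r of 0.99, 0.99 and 0.98, the highest of any member. For Pomc they were 1700027J07Rik, Dnah8 and Stk36, with r of 0.90, 0.89 and 0.89, and without the 2 arrays farthest from the median r was 0.81, 0.69 and 0.72.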

How the data were processed

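The authors deposited 1 scanner file per array with the intensity of each of 62976 spots, made with Agilent Feature Extraction 10.7.3.1 according to the file headers. The methods name another dye, scanner and array format than the files and labels do. The processed signal of that software was used, and 4278 spots marked as outliers over all arrays were dropped. Replicate spots were averaged as log2 values, and arrays were scaled so that their 75th percentiles were equal. The series matrix holds background-subtracted intensities, which served only as an alternative. The number of arrays, 5 per group, limits the precision. Genes were named by matching RefSeq identifiers to a table of GRCm38.p6, used for names and promoter sequences only, since the probe positions are of another build. A probe needed a value on 3 arrays of each group, a gene was read from its brightest probe, and it was tested if 1 group mean reached 6 log2 units.

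Groups were compared with limma 3.58.1 (R 4.3.3) in a fit of all 4 groups, tested on simulated data, with a Benjamini-Hochberg adjusted p under 0.05. All 8 opioid genes are named with every probe, and from the pathway lists the 4 genes with the smallest p per comparison among those that passed. Like genes were the 3 with the highest Pearson r. Correlations between members used 100000 permutations. The alternatives were other scalings and background correction, the series matrix values (7831 below 1 set to 1), other filters, probe rules, blocks, tests and thresholds, and each array left out, for the dimmer probes too (chosen after seeing the data). The members and lists were chosen with earlier results of these data known. The marker lists also covered thalamus, astrocytes, oligodendrocytes, choroid plexus and red blood cells. Figures were drawn with Python 3.11.15 and matplotlib 3.10.9.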

Additional observations from a re-analysis of the deposited data

Results flagged for a closer look

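Of 44 combinations of an opioid probe and a group, 2 held an array whose distance from the rest exceeded Dixon's limit, where chance flags about 1 in 20. Pomc in Tat+/Sal replicate 4 read 10.35, while the next array read 9.44. The other 4 Tat+/Sal arrays lay within 9.25 to 9.44, and this array had the most outlier spots of all 20 arrays, 361. The dimmer Oprl1 probe in Tat-/Meth replicate 5 read 7.38, while the next array read 6.33. That array had the highest share of probes well above background, 70.9%, where the other 4 arrays of slide 1 had 56.4 to 60.2%.

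The Meth difference of Penk differed between Tat+ and Tat- mice, with an interaction of 0.29 (limma Benjamini-Hochberg adjusted p = 0.0090). In the saline groups the Penk means of Tat+ and Tat- mice were 18.29 and 18.28. After quantile normalization the interaction was 0.02.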

How the results depend on the processing

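The effect of 19 alternative settings, and of leaving out each of the 20 arrays, was computed for the number of opioid genes called in each comparison. For Tat-/Meth vs. Tat-/Sal the count of 2 became 1 with quantile normalization, where Penk was lost, and 0 under either fold threshold (adjusted p under 0.05 and above 2-fold, or under 0.01 and above 3-fold). It became 3 with normexp or slide as a random block (Oprk1 added), with only the groups compared or the methods' test (Pomc added), and with no scaling (Penk, Oprm1 and Oprl1, without Pdyn). Median scaling kept 2, with Oprk1 in place of Penk, and the mean over probes or the dimmer probe kept 2, with Oprm1 in place of Pdyn. For Tat+/Meth vs. Tat-/Meth the count of 2 became 1 with quantile normalization or median scaling and 0 under either fold threshold, and 3 with the dimmer probe (Penk, Oprm1 and Oprl1). No scaling and the mean over probes kept 2, with Oprm1 in place of Pdyn. With quantile normalization the Penk difference for Tat+/Meth vs. Tat-/Meth was -0.0681, the 1 reversal among the single genes. For Tat+/Sal vs. Tat-/Sal the count of 0 became 1 (Pomc) with slide as a random block. For the interaction the count of 1 became 0 with median scaling, the series matrix values or either fold threshold. It became 2 with the mean over the probes of a gene, slide as a random block or the dimmer probe of Pdyn, Oprm1 and Oprl1 (an alternative chosen after seeing the data), and 3 with no scaling. With quantile normalization it stayed 1, and the gene was Pdyn in place of Penk. Leaving out 1 array gave 2 to 3 genes for Tat-/Meth vs. Tat-/Sal (3 without Tat-/Sal replicate 3 or 4, which added Oprk1), 1 to 2 for the interaction (2 without Tat-/Sal replicate 1, which added Pdyn), 2 for Tat+/Meth vs. Tat-/Meth and 0 for the other 3 comparisons. With Tat+/Meth against either saline group the count was 0 under every alternative run. The causes were not tested.

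The replicate block changed no count (2, 0, 0, 2, 0 and 1). The labels do not explain the replicate numbers as a pairing. Of 30 pairs of same-numbered arrays, 8 had a correlation of deviations above 0.1, with a range of -0.18 to 0.36. Of the 20 arrays, 8 correlated best with their own number. No chance rate was computed for these counts, so they do not decide whether the numbers are a pairing. The fixed slide block could not be fitted for comparisons with Tat-/Meth, since slide 1 held no other group. The random slide block had an estimated correlation of -0.06 within slides, so calls gained with it are not calls kept after an adjustment for slide. Among the single opioid genes, the direction changed in 68 of 714 alternative values that passed no test, and calls were lost in 12 and gained in 20. Named pathway genes kept their direction in all 190 alternative values and lost their call in 26. Dim probes limit the second probes of Oprm1 and Oprl1, which were well above background on 16 and 17 of the 20 arrays.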
